A study of Mus musculus with 12 samples.

Results

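Connexins are the subunits of gap junctions, the channels through which neighbouring cells exchange ions and small molecules. The 9 connexin genes described here are Gja1, Gja4, Gja5, Gjb1, Gjb2, Gjb5, Gjb6, Gjc1 and Gjc3. They were taken by name from the deposited table of 22869 gene symbols, which names 20 connexin genes in all, and each is represented by that RefSeq transcript row which collected most reads. Transcript abundance was measured by RNA-seq of polyA RNA in cochlear epithelium of C57BL/6 mouse embryos at embryonic day 16.5. The groups were 3 wild-type embryos (control) and 3 Esrp1-/- embryos (knockout), homozygous for the mutant allele of the gene of ESRP1, a splicing regulator of epithelia. Both cochleae of an embryo were pooled, the tissue was dissected by hand and treated with collagenase P to free it of mesenchyme, and the embryo is the replicate.

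In the cochlea, connexin 26 (Gjb2) and connexin 30 (Gjb6) join supporting cells and other epithelial cells into one network, while connective tissue cells of the lateral wall form a further network. These networks are known for the return of potassium from the hair cells towards the endolymph, and mutations of the human counterparts of Gjb2 and Gjb6 are known causes of deafness. Connexin 43 (Gja1) is widespread in connective tissue and glia, connexin 45 (Gjc1) is found in early vessels and muscle, connexins 37 (Gja4) and 40 (Gja5) in the endothelium of arteries, and connexin 29 (Gjc3) in Schwann cells.

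Depth ranged from 12547301 to 21568516 gene reads, and the test covered 14717 genes. Levels are given as CPM, the reads of a gene relative to the TMM-scaled library size. Esrp1, the targeted gene, had 102 to 197 CPM in controls and 27.2 to 39.1 CPM in knockouts (edgeR's log2 fold change -2.05 ± 0.26, SE, with an adjusted p = 0.0354). All 12 cochlear epithelium markers were detected, and so were all 12 endothelial, 12 mesenchyme, 10 mural cell and 12 Schwann and glial markers, so the libraries held RNA of other tissues too. The embryos also differed in sex-linked RNA, with Xist at 1098 to 1808 CPM in the controls and knockout 1 and at 0.27 and 0.20 CPM in knockouts 2 and 3. Fos, an immediate early gene, stood at 153 CPM (control 1) and 64.6 CPM (knockout 1), while the remaining embryos had 1.00 to 7.27 CPM. Each member was also fitted with Xist as a covariate and without both embryos numbered 1, and the part of sex and of Fos was not tested in any other way. Since only knockouts were low in Xist, the genotype term of the Xist fit rests largely on knockout 1.

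No connexin passed the test between knockout and control. Of the 8 members with enough reads to be tested, 0 had an adjusted p under 0.05 in edgeR's quasi-likelihood test. In that test 1 had an unadjusted p under that value (Gja5, beside 4.77% of all genes tested). DESeq2 called 0 of 9, with 2 at an unadjusted p under 0.05, beside 807 of 18508 genes. Over all genes tested, 0.149% were called by edgeR (12 higher and 10 lower), a share too small for a count of 0 among 8 to stand out. The adjusted p was 0.994 for 7 members and 0.995 for Gjb1. Of the 8, 5 had a negative and 3 a positive log2 fold change, with a median of -0.088, while over all genes tested the median was 0.0016. CPM of the 2 groups did not overlap for 1 of the 8, Gja5, and for 9.84% of all genes tested. The data bound the size of the differences unequally, as the 95% intervals of the fold changes show. Their width did not follow abundance alone. Gjc3, at a mean of 7.22 CPM, had a standard error of 0.58, and the scarcer Gja4, at 3.34 CPM, one of 0.31.

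**Figure D1:**
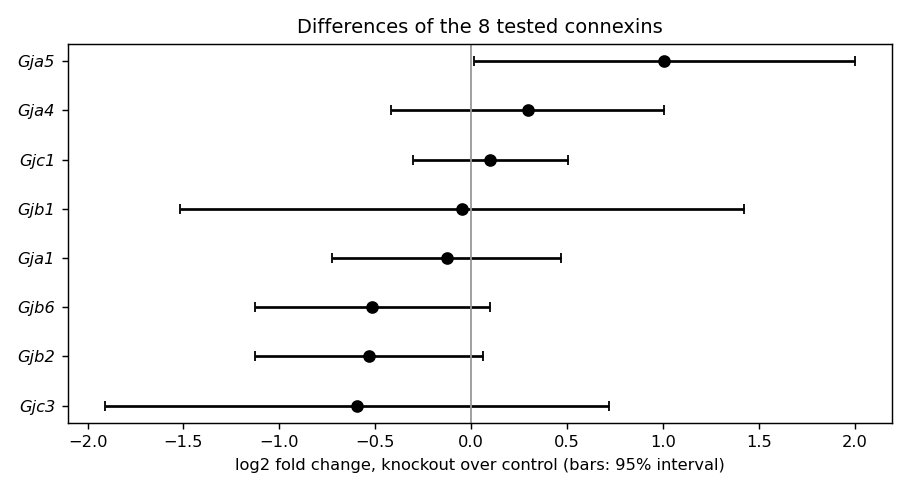
Log2 fold change, knockout over control, of the 8 connexins tested (x axis), 1 row per gene; points are edgeR estimates from 3 control and 3 knockout embryos and bars their 95% intervals. The interval of Gjc1 is the narrowest (-0.30 to 0.50) and that of Gjb1 the widest (-1.52 to 1.42); that of Gja5 lies just above 0 before adjustment.

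Gjb2 and Gjb6 lie next to each other on chromosome 14 on the minus strand, Gjb2 from 57098602 to 57104702 and Gjb6 from 57123301 to 57133611 (RefSeq, GRCm38.p6, the assembly mm10 stands for), with 18598 bases between them. The 250 bases before each start are shown because these neighbouring genes had nearly the same log2 fold change with all 6 embryos (-0.53 and -0.52). Without both embryos numbered 1 the values were further apart, -0.077 for Gjb2 and -0.34 for Gjb6. Shared regulation was not tested. They are written 5′ to 3′ on the gene's strand, from RefSeq on GRCm38.p6, Gjb2 at chr14:57104703-57104952 and Gjb6 at chr14:57133612-57133861. Capitals mark matches on either strand to any of the 4 motifs searched, the GC box GGGCGG, the TATA box TATAAA, the CCAAT box CCAAT and the variant TTAAAA.
Gjb2: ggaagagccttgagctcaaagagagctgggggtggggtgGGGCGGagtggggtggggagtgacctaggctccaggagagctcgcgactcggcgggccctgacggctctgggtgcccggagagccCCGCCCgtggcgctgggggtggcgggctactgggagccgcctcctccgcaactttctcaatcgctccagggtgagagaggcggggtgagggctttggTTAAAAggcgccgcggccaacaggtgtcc
Gjb6: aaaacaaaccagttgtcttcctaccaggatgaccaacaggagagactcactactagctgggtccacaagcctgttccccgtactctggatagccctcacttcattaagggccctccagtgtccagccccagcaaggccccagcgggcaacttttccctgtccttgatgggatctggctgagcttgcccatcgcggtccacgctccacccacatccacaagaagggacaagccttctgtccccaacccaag
The Gjb2 stretch held 2 GC boxes, 211 to 206 and, on the opposite strand, 126 to 121 bases before the start, and a TTAAAA 29 to 24 bases before it. None of the 4 motifs matched in the Gjb6 stretch, which says only that these letters are not in this window. Among 32851 stretches of the same length before RefSeq starts, 32.7% held a GC box, 12.4% a TATAAA, 33.8% a CCAAT and 17.7% a TTAAAA. G and C made up 69.2% of the Gjb2 stretch, with 18 CpG pairs, and 56.8% of the Gjb6 stretch, with 5, beside medians of 52.4% and 6 over all stretches. The motifs overlap no other motif of the 4 in these stretches, and a match is a description of letters, not a bound site.

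Gjb2, the connexin of the epithelial network with the most transcript, was the most abundant of the 9 in every embryo. It had 440, 278 and 284 CPM in controls 1, 2 and 3 and 156, 245 and 292 CPM in knockouts 1, 2 and 3. Control 1 was the highest and knockout 1 the lowest embryo, while the other 4 lay between 245 and 292 CPM with knockouts and controls interleaved, so the groups overlapped. Controls averaged 334 ± 91.7 CPM and knockouts 231 ± 69.2 CPM (SD, n = 3), 69.1% of control. The log2 fold change was -0.53 ± 0.26 (SE, 95% interval -1.13 to 0.06, adjusted p = 0.994, edgeR's quasi-likelihood test), and a two-sided exact permutation test over the embryos gave p = 0.30, where 0.10 is the smallest that 3 against 3 embryos allow. Without both embryos numbered 1, which are the ones with raised Fos, the log2 fold change was -0.077 ± 0.096. Without control 1 alone it was -0.29 and without knockout 1 alone -0.33. With Xist as a covariate, which is low in knockouts 2 and 3 and high in knockout 1 and the controls, it was -1.14 ± 0.32 (adjusted p = 0.103, edgeR). The genotype term of that fit rests largely on knockout 1, the lowest embryo for Gjb2. In that fit 3554 of 14717 genes had an unadjusted p under 0.05 in edgeR, against 702 without the covariate.

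Gjb6, the usual partner of Gjb2 in mixed channels, was present at a far lower level. Its CPM was 21.6, 11.98 and 21.9 in controls 1, 2 and 3 and 11.8, 10.8 and 16.2 in knockouts 1, 2 and 3. Controls 1 and 3 were above all knockouts and control 2 lay among them, so here it was a control that brought the overlap. Controls averaged 18.5 ± 5.66 CPM and knockouts 12.9 ± 2.82 CPM, 69.9% of control, and the log2 fold change was -0.52 ± 0.27 (95% interval -1.13 to 0.10, adjusted p = 0.994, edgeR; two-sided exact permutation p = 0.20). Leaving out control 2 gave -0.75 ± 0.23 (adjusted p = 0.706), and leaving out both embryos numbered 1 gave -0.34. The 2 transcript rows of Gjb6 counted largely the same reads (1615 and 1503 over the embryos), and the smaller row gave -0.54.

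In the authors' deposited table, whose edgeR comparison was made over transcript rows, Gjb2 had a log2 fold change of -0.55 (p = 0.012, FDR = 0.625). The same deposited table by the authors gave -0.56 for the Gjb6 row used here (p = 0.0469, FDR = 1). Neither gene therefore passed in the authors' deposited table at an FDR of 0.05.

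**Figure D2:**
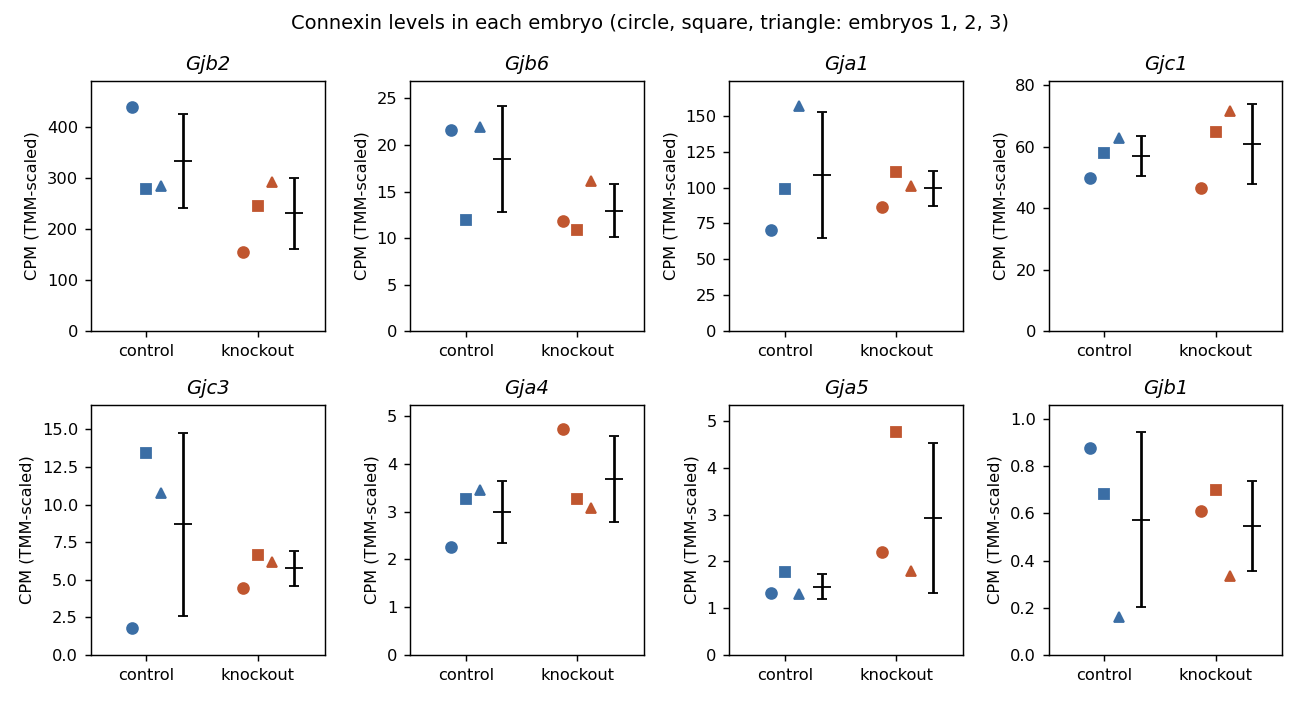
TMM-scaled CPM (y axes, each from 0) of 8 connexins in the 3 control and 3 knockout embryos; symbols are single embryos, and the dash with bars is the mean ± SD. Gjb2 runs from 156 to 440 CPM with the embryos numbered 1 at both ends, and Gja5 is the 1 panel in which every knockout stands above every control.

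Embryos differed in the level of epithelial markers. Of the 12, 9 had a positive and 3 a negative log2 fold change (median 0.20), and 0 passed in edgeR. The geometric mean of the 12 epithelial markers, among them the adhesion genes Epcam and Cdh1, the keratins Krt8 and Krt18 and the tectorial genes Tecta and Otog, stood at 331, 190 and 217 CPM in controls 1, 2 and 3 and at 218, 267 and 331 CPM in knockouts 1, 2 and 3. Control 1 and knockout 3 stood highest in this mean and control 2 lowest. Of the 12 markers, control 1 and knockout 3 each held the highest value of 6. Control 2 held the lowest value of 8 and knockout 1 of 4. Those 4 were Cdh1, Sox2, Jag1 and Otogl, with Sox2 at 72.1 CPM in knockout 1 and 97.3 to 117 CPM in the other embryos. Knockout 1 was also lowest in Gjb2, and the part of these markers in the Gjb2 values was not tested. In bulk RNA, fewer cells of a type and less RNA per cell cannot be told apart. Nor do these data show which cells the Gjb2 and Gjb6 reads came from, epithelial or other. A further scaling, added after these differences had been seen, divided the CPM of each embryo by this marker mean, set to average 1 on the log scale. On that scale Gjb2 had 337, 371 and 331 CPM in the controls and 180, 232 and 223 CPM in the knockouts. Gjb6 had 16.6, 16.0 and 25.5 CPM in the controls and 13.7, 10.3 and 12.4 CPM in the knockouts. Every knockout was then below every control for both genes, which was so for 3.7% of all genes tested (544) and for 2 of the 8 members tested, the other 6 overlapping. The reverse, every knockout above every control, held for 175 genes on this scale, so the scaling leaned towards lower values in knockouts. Neither passed in edgeR with the library sizes scaled in this way (adjusted p = 1 for both). Gjb2 had a log2 fold change of -0.71 ± 0.31 and Gjb6 of -0.68 ± 0.42, where this scaling by itself moved the median of all genes by -0.18. Relative to that median the differences were therefore close to those on the unscaled counts.

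**Figure D3:**
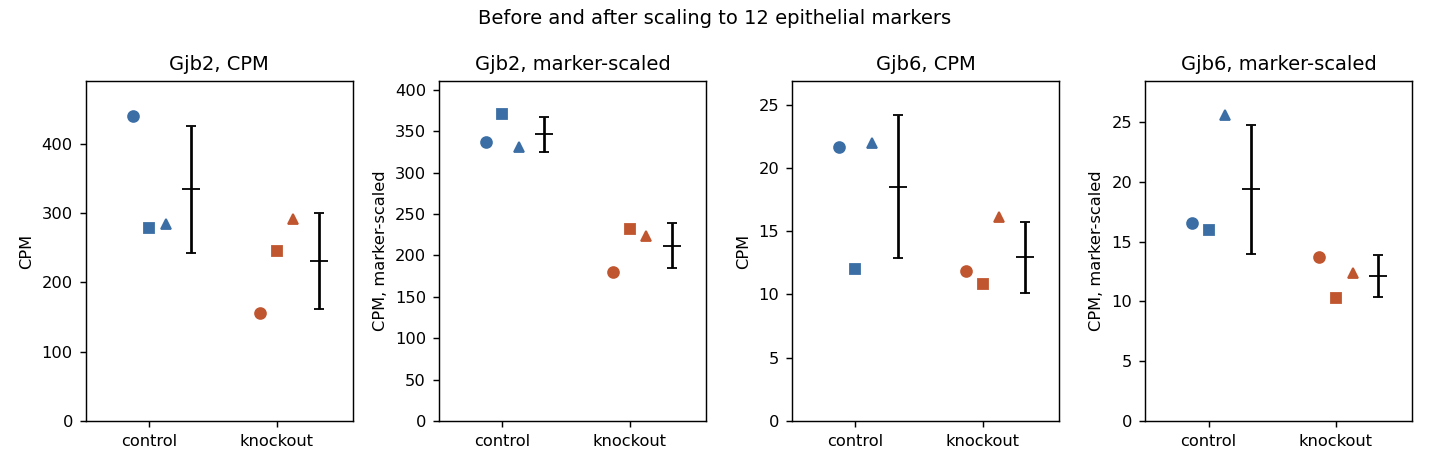
CPM of Gjb2 and Gjb6 in each embryo before and after division by the mean of 12 epithelial markers (y axes from 0; symbols as single embryos, dash and bars as mean ± SD, n = 3). Scaled Gjb2 lies at 331 to 371 CPM in controls and 180 to 232 CPM in knockouts, while the unscaled groups overlap.

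Gja1, the connexin of connective tissue and glia, was second in level. Its CPM was 70.5, 98.8 and 157 in controls 1, 2 and 3 and 86.8, 111 and 100.8 in knockouts 1, 2 and 3. All 3 knockouts lay within the range of the controls, which spread over more than the knockouts did. The means were 109 ± 43.9 and 99.4 ± 12.03 CPM and the log2 fold change was -0.13 ± 0.26 (95% interval -0.72 to 0.47, adjusted p = 0.994, edgeR; two-sided exact permutation p = 1). Leaving out control 3, the highest embryo, turned the sign, to 0.23. Of the 12 mesenchyme markers, control 1, lowest in Gja1, held the lowest value of 9 and the highest of 1. Control 3, highest in Gja1, held the highest value of 5, and knockouts 1, 2 and 3 held that of 2, 3 and 1. The summed level of these markers was 2849 to 4080 CPM in controls and 3675 to 4015 CPM in knockouts, and their part in the Gja1 values was not tested.

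Gjc1, the connexin 45 gene, had the smallest error of the members. It had 49.95, 58.0 and 62.7 CPM in controls 1, 2 and 3 and 46.5, 64.9 and 71.5 CPM in knockouts 1, 2 and 3. Knockouts 2 and 3 lay above every control, and knockout 1, the lowest of the 6 embryos, made the groups overlap. The means were 56.9 ± 6.46 and 61.0 ± 12.96 CPM, and the log2 fold change was 0.10 ± 0.18 (95% interval -0.30 to 0.50, adjusted p = 0.994, edgeR). Its 3 transcript rows counted 5970 to 6129 reads, which differ by less than the spread between embryos.

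Gjc3, the connexin 29 gene of Schwann cells, varied widely between control embryos. Its CPM was 1.82, 13.4 and 10.8 in controls 1, 2 and 3, resting on 29, 296 and 200 reads, and 4.42, 6.66 and 6.21 in knockouts 1, 2 and 3. Control 1 was below every other embryo and controls 2 and 3 above every knockout, so the size of the difference depended on which controls were counted. The log2 fold change was -0.59 ± 0.58 (95% interval -1.91 to 0.72, adjusted p = 0.994, edgeR), -1.07 ± 0.24 without control 1 (adjusted p = 0.200) and -0.13 without control 2. Some markers of the nerve were low in control 1 as well, and 3 such glial genes are given here, chosen after their values were seen. The glial gene Cdh19 had 3.57 CPM there against 24.4 and 16.1 in controls 2 and 3, the neural crest factor gene Foxd3 2.44 against 24.8 and 9.38, and Fabp7 48.6 against 261 and 162. Of the 12 Schwann and glial markers, control 1 held the lowest value of 5 and the highest of 5, the latter including Sox10 and Erbb3, which the cochlear epithelium also expresses. Their summed level was 1084 CPM in control 1, the highest of the 6 embryos, 902 to 1084 CPM over the controls and 834 to 1031 CPM in knockouts, none of the 12 being at 0. Of the 10 neuron markers 9 were lowest in control 1 and 9 were highest in control 2, with sums of 111 to 1012 CPM in controls and 570 to 754 CPM in knockouts. The part of nerve tissue in the Gjc3 values was not tested.

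The arterial connexins Gja4 and Gja5 were scarce, with 341 and 229 reads over the 6 embryos. Gja5 had 1.32, 1.77 and 1.29 CPM in controls 1, 2 and 3 and 2.21, 4.78 and 1.80 CPM in knockouts 1, 2 and 3. Knockout 2 stood far above the rest, and knockout 3 exceeded control 2 only by 1.80 against 1.77 CPM, on 27 and 39 reads, so the separation of the groups is narrow. The means were 1.46 ± 0.27 and 2.93 ± 1.61 CPM and the log2 fold change was 1.01 ± 0.44 (95% interval 0.01 to 2.00, unadjusted p = 0.0474, adjusted p = 0.994, edgeR; two-sided exact permutation p = 0.10, the smallest possible). With RLE in place of TMM scaling 0 members had an unadjusted p under 0.05. Without knockout 2 it was 0.45 ± 0.42 (adjusted p = 0.936), and the authors' deposited table gave 0.96 (p = 0.0432, FDR = 1). Endothelial markers summed to 309, 597 and 403 CPM in controls 1, 2 and 3 and to 428, 479 and 276 CPM in knockouts 1, 2 and 3. The order among the knockouts was that of Gja5, but control 2, highest in this sum, had less Gja5 than every knockout. Control 2 held the highest value of 9 of the 12 markers and knockout 2 of 2, and knockout 3 held the lowest of 11. None of the 12 was at 0, and their part in the Gja5 values was not tested.

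Gja4 had 2.26, 3.27 and 3.45 CPM in controls 1, 2 and 3 and 4.73, 3.27 and 3.07 CPM in knockouts 1, 2 and 3. Only knockout 1 lay above the controls and only control 1 below the knockouts, the reverse of their places in Gjb2. The log2 fold change was 0.29 ± 0.31 (95% interval -0.42 to 1.01, adjusted p = 0.994, edgeR), and -0.088 without both embryos numbered 1. The 10 mural cell markers, which cover the muscle and pericytes of vessels, summed to 337 to 379 CPM in controls and 288 to 371 CPM in knockouts. Notch3 was the largest single part of that sum, at 145 to 224 CPM in controls. In edgeR 0 of the 10 passed, with 2 at an unadjusted p under 0.05, beside 4.77% of all genes tested. These 2, Acta2 (log2 fold change 1.12, unadjusted p = 0.0106) and Des (1.17, unadjusted p = 0.0169), were higher in every knockout. Of the 10, 4 had a positive log2 fold change (Acta2, Des, Tagln and Myh11) and 6 a negative one. The part of mural cells in the Gja4 and Gja5 values was not tested.

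The remaining members were at the edge of detection. Gjb1, the connexin 32 gene of Schwann cells and liver, on the X chromosome (101376376 to 101385629), had 14, 15 and 3 reads in controls 1, 2 and 3 and 8, 13 and 5 reads in knockouts 1, 2 and 3. The ratio of its summed reads relative to the summed library sizes, knockout over control, was 0.983 (exact 95% interval 0.563 to 1.70, counting error only) and its log2 fold change -0.05 ± 0.65. Gjb5, the connexin 31.1 gene known from skin, had 4 reads in control 3, 4 in knockout 1, 1 in knockout 2 and 0 in the other 3 embryos, and it was not tested. A count of 0 there allows up to 0.136 to 0.200 CPM, so no fold is given for this gene.

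Levels of different genes were compared only per length, in FPKM as the authors deposited them. In controls the order was Gjb2 at 56.0 ± 11.1 FPKM, Gja1 at 15.8 ± 6.89, Gjc1 at 9.25 ± 1.58, Gjb6 at 3.63 ± 1.03, Gjc3 at 1.04 ± 0.75, Gja4 at 0.77 ± 0.21, Gja5 at 0.21 ± 0.05, Gjb1 at 0.17 ± 0.10 and Gjb5 at 0.017 FPKM (SD, n = 3). Gja1 and Gjc1 overlapped between control embryos, as did Gjc3 and Gja4, Gja5 and Gjb1, and Gjb1 and Gjb5, so these neighbours are not ordered beyond their spread. Gjb2 was apart from Gja1, Gjc1 from Gjb6 and Gjb6 from Gjc3 in each group. In knockouts the order was the same except that Gja4 (0.95 ± 0.29 FPKM) stood before Gjc3 (0.68 ± 0.12 FPKM), which overlapped there too.

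Summed over all 20 connexin genes, connexin transcript came to 91.1, 80.6 and 90.7 FPKM in controls 1, 2 and 3 and 56.1, 74.7 and 76.9 FPKM in knockouts 1, 2 and 3. Every knockout lay below every control in this sum, whose largest part is Gjb2, and which was chosen after the values were seen and is given with no test. In TMM-scaled CPM the groups overlapped, the 9 members summing to 466 to 588 CPM in controls and 313 to 492 CPM in knockouts. Gjb2 made up 75.5, 61.4 and 54.8% of the FPKM sum in the controls and 51.2, 56.9 and 60.8% in the knockouts, groups that overlapped. Gjb2 exceeded Gjb6 by 11.1 to 19.9 times in controls and 11.3 to 19.6 times in knockouts, so the proportion of the epithelial pair covered the same range in both groups. Gja1 took 10.2 to 25.4% in controls and 18.1 to 24.2% in knockouts. Gjc1 took 8.18 to 12.2% in controls and 14.2 to 14.6% in knockouts, with no overlap, and it is a share of a total that is mostly Gjb2.

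**Figure D4:**
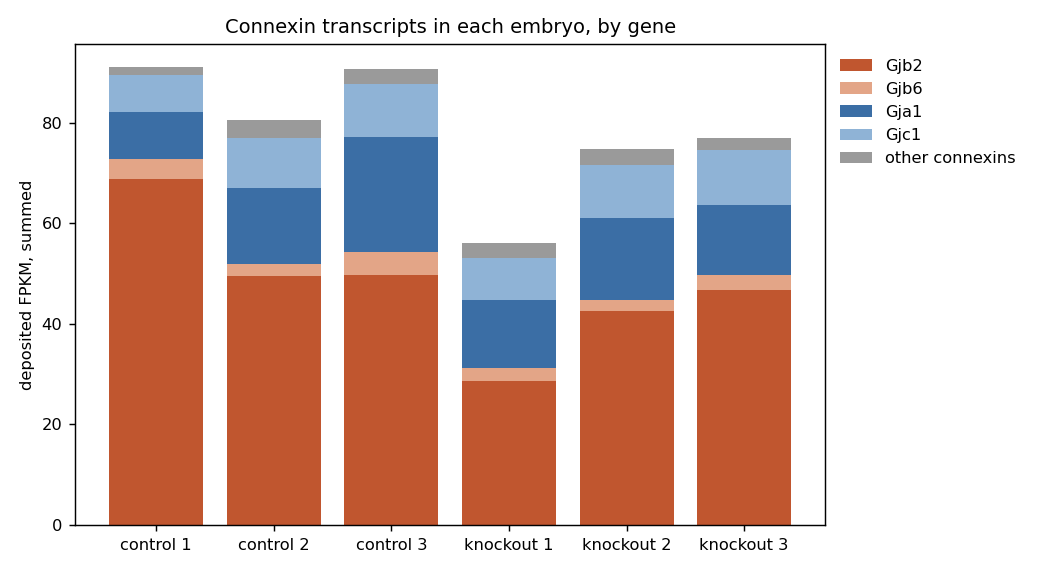
Deposited FPKM summed over 20 connexin genes (y axis) in each of the 6 embryos, 1 bar per embryo, split by gene. Gjb2 is the largest part of every bar, at 51.2 to 75.5%, and the bar of knockout 1 is the shortest at 56.1 FPKM.

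The other connexins of the table were scarce. Only Gjd2, the connexin 36 gene of neurons, had enough reads for the test. It had 0.25, 3.18 and 1.24 CPM in controls 1, 2 and 3 and 1.83, 1.07 and 0.87 CPM in knockouts 1, 2 and 3, lowest in control 1 as Gjc3 was, and edgeR gave -0.35 ± 0.73 (log2 fold change, adjusted p = 0.994). Of the 3 pannexins, which form related channels in single membranes, 0 passed. Panx1 had 34.3 to 46.6 CPM over the embryos. Panx3, a pannexin of cartilage and bone, had the smallest adjusted p (log2 fold change 2.27 ± 0.89, adjusted p = 0.903), set by knockout 2 at 9.72 CPM against 0.59 to 1.13 CPM in the other 5. Knockout 2 was therefore the highest embryo for both Panx3 and Gja5.

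Proteins that bind, carry or phosphorylate connexins were listed as partners. Of these 12 genes 0 passed, 6 had positive and 6 negative log2 fold changes, and the median was 0.04. All 12 had the same adjusted p, and the smallest unadjusted p was that of Cav1, the caveolin gene (log2 fold change 0.55 ± 0.25, unadjusted p = 0.0577, adjusted p = 0.994, edgeR), at 29.2 to 50.5 CPM in controls and 45.0 to 76.5 CPM in knockouts. Tjp1, the scaffold ZO-1 on which connexin 43 is anchored, had 364 ± 25.5 and 347 ± 65.0 CPM (log2 fold change -0.07 ± 0.17). Cnst, which encodes the connexin carrier consortin, had 53.6 to 57.2 CPM in controls and 61.9 to 65.1 CPM in knockouts, and the log2 fold change was 0.20 ± 0.11. It was 1 of 2 among the 12 whose groups did not overlap, beside 9.84% of all genes tested. The other was the kinase gene Mapk7, at 59.1 to 59.6 CPM in controls and 62.4 to 66.5 CPM in knockouts.

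Of 13 genes listed for potassium handling around the gap junction network, 2 were called lower and 0 higher in edgeR. An unadjusted p under 0.05 was found for 4 of the 13, beside 4.77% of all genes tested. The median log2 fold change of the 13 was -0.27, and not all of them carry potassium themselves. Kcne1, which encodes an accessory subunit of the channel that secretes potassium into the endolymph, had 8.94 to 16.1 CPM in controls and 0.15 to 0.64 CPM in knockouts (edgeR's log2 fold change -4.67 ± 0.45, with an adjusted p = 0.0137). Bsnd, the gene of the chloride channel subunit barttin, had 2.59 to 5.14 CPM in controls, 0.15 CPM in knockout 1 and 0 reads in knockouts 2 and 3 (adjusted p = 0.0354, edgeR). The groups did not overlap for either, unlike Gjb2 and Gjb6 in the same embryos. Over all genes 0.149% were called, and both calls ended without control 3 and without knockout 2, where 0 genes were called, and with Xist as a covariate, where 0 were called lower. Kcnj10, the potassium channel gene of strial intermediate cells, had 8.77 to 10.2 CPM in controls and 6.55 to 9.45 CPM in knockouts (log2 fold change -0.27 ± 0.21). Melanocyte markers, the class of the intermediate cells, summed to 192 to 258 CPM in controls and 118 to 198 CPM in knockouts, with 8 of 9 tested negative, 0 passing and 6 at an unadjusted p under 0.05, beside 4.77% of all genes tested. Their part in the Kcnj10 values was not tested. Of 10 markers of hair cells, the neighbours of the supporting cells, 0 passed, 5 were positive and 5 negative. In edgeR 2 had an unadjusted p under 0.05, Slc17a8 (log2 fold change 2.19) and Pou4f3 (-0.83), beside 4.77% of all genes tested. Among the 10, 2 were lower and 1 was higher in every knockout, beside 9.84% of all genes tested whose groups did not overlap. Slc12a2, the cotransporter gene that loads potassium into marginal cells, had 230 to 287 and 154 to 230 CPM (edgeR's log2 fold change -0.40 ± 0.17, unadjusted p = 0.0479, adjusted p = 0.994). The potassium channel gene Kcnq1 had 9.16 to 15.8 CPM in controls and 4.78 to 9.22 CPM in knockouts, groups that overlapped. Its log2 fold change was -0.91 ± 0.33 (unadjusted p = 0.0227, adjusted p = 0.808, edgeR).

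Genes whose log2 CPM followed a member most closely over the 6 embryos were sought among genes with a mean of at least 5 CPM, as a description with no test. With 6 points that share genotype, depth and tissue makeup, such likeness is common: 334 of 11331 candidates (2.95%) had a Pearson r of at least 0.9 to Gjb2 and 37 (0.327%) to Gjb6. Closest to Gjb2 were the Wnt receptor gene Fzd4 (r = 0.995), Btg1, an inhibitor of proliferation (0.995), and the zinc finger gene Zfp238 (0.994). Closest to Gjb6 were Gpbp1l1 (r = 0.993), the fucosyltransferase gene Fut9 (0.964) and the kinase gene Irak4 (0.960). For Gja1 they were Surf6, the ligand gene Bmp5 and Ptpdc1 (r = 0.995 to 0.983), and for Gjc1 they were Mtap, Ccnyl1 and Nin (0.991 to 0.989). Gjc3 was most like Ppfia2, the glutamate receptor gene Gria4 and Slitrk2 (r = 0.996 to 0.992). Gja4 was most like Znrd1, Abhd8 and the mitochondrial ribosome gene Mrps16 (0.997 to 0.993), and Gja5 had the fewest close genes, 5 of 11332 at 0.9 or more, led by Rdh11 (0.966), Rbmx and Dclre1a. No member was among the 3 closest genes of another, but members with a mean under 5 CPM, such as Gja4 and Gja5, were not candidates. Between members r ran from -0.975 (Gja4 and Gjb2) to 0.765 (Gja1 and Gjc3), and it was 0.682 for Gjb2 and Gjb6.

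How far the comparison of the epithelial pair and of Gja5 depends on single embryos is shown by the fits that leave them out. Gjb2 and Gjb6 had negative and Gja5 positive log2 fold changes in the fit of all embryos and in each of the 15 other fits, and none of these fits called any of them. Gjb2 ranged from -1.14 to -0.077, Gjb6 from -0.75 to -0.34 and Gja5 from 0.45 to 1.26.

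**Figure D5:**
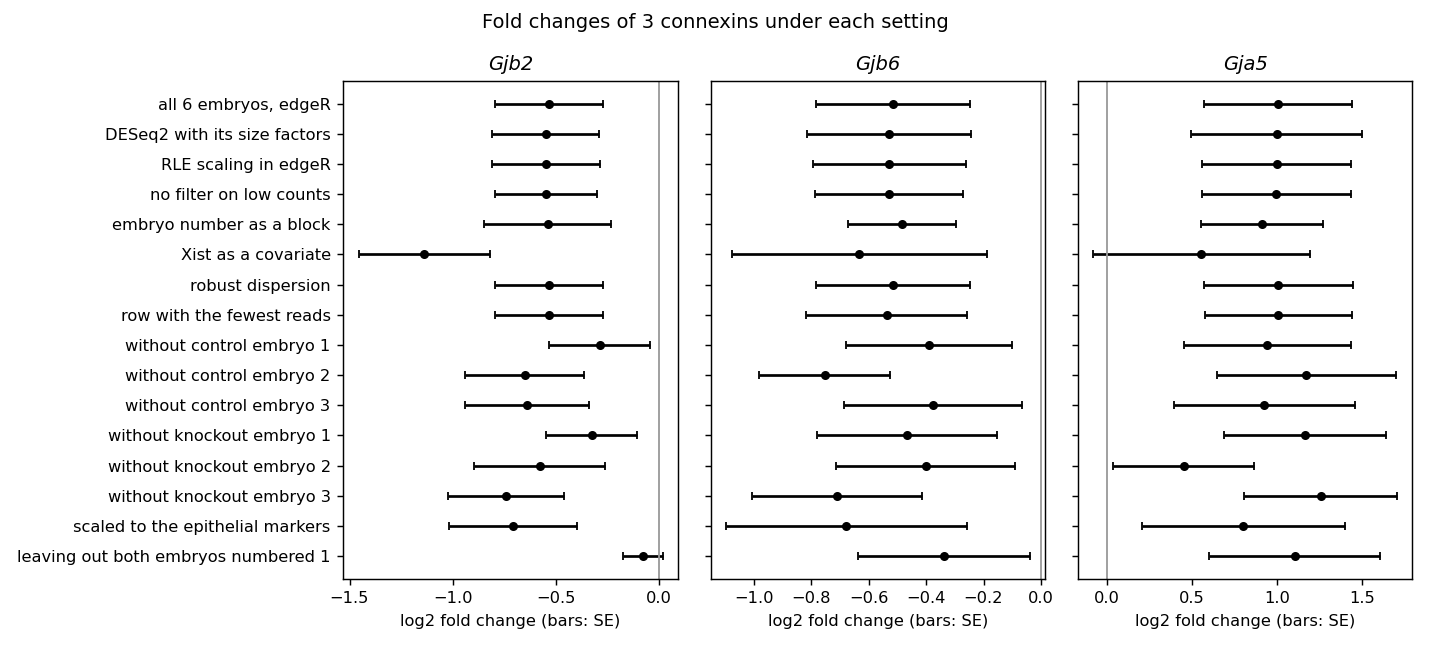
Log2 fold change, knockout over control, of Gjb2, Gjb6 and Gja5 (x axes) with all 6 embryos and under each other setting (rows); bars are standard errors. Gjb2 comes closest to 0 without both embryos numbered 1 (-0.077) and Gja5 without knockout embryo 2 (0.45).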

How the data were processed

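RNA-seq libraries, 12 in all and 2 per embryo, were read from one table with 1 column per embryo. Per the file headers, the authors deposited raw read counts per RefSeq transcript, FPKM (per transcript length and library size, by the authors), and the log2 fold change with its p-value and FDR from their own edgeR comparison. The submitters' processing notes name edgeR and mm10. No source used here names the aligner or counter. Another 14 named columns stayed unused.

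Each gene was its row with the most reads (12547301 to 21568516 reads per embryo on genes). Counts were filtered with filterByExpr (minimum count 10), scaled by TMM and tested across all genes in edgeR 4.0.16 (R 4.3.3) by the quasi-likelihood F test, with Benjamini-Hochberg adjusted p-values called under 0.05. A standard error is the log2 fold change, without its sign, divided by the root of F, and 95% intervals use the degrees of freedom of that test (median 8.61). Exact permutation tests used log2(CPM + 0.1). DESeq2 1.42.0, RLE scaling, no filter, a replicate block, Xist as a covariate, robust dispersion, another row per gene and left-out embryos were alternatives, and edgeR, with and without the block, and DESeq2 were checked on simulated counts. Intervals of read ratios and limits of 0 reads (3 reads) cover counting error only. The series' design text gives the embryos as biological replicates.

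Members and lists were chosen with earlier results of these data known. Named genes are the members, the called genes or else the smallest adjusted p (with ties, the smallest p) of each list of other connexins, pannexins, partners and potassium genes, and the 3 genes most like each member with a mean of at least 1 CPM (log2 CPM with prior count 2, clone and model names left out). Panx1, Tjp1, Cnst, Mapk7, Kcnj10, Slc12a2, Kcnq1, Cdh19, Foxd3 and Fabp7, the other named markers, the sums of connexin FPKM and the TTAAAA motif were chosen after values were seen. Promoter sequences and positions are from RefSeq on GRCm38.p6. Of the 9 members, 8 had a promoter entry. Gjc1 did not.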

Additional observations from a re-analysis of the deposited data

How the results depend on the processing

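Called connexins stayed at 0 under all 15 alternatives, 1 of which, the scaling to epithelial markers, was added after seeing the data. Over all genes 22 were called with all embryos, 166 by DESeq2, 6 with the embryo number as a replicate block, 6 with Xist as a covariate, 59 scaled to the epithelial markers, 159 without both embryos numbered 1, and 0 to 30 leaving out one embryo each, 0 without control 3 or knockout 2, 4 without knockout 3, 12 without knockout 1, 13 without control 2 and 30 without control 1. The cause was not tested. Esrp1 kept its sign in every fit (-2.36 to -1.59) and missed the threshold in 6. Signs turned for scarce or little changed members: Gjb1 (-0.05) to 0.048 with the block, 0.087 with Xist, 0.27 without both embryos numbered 1 and -0.49 to 0.35 leaving out one embryo; Gjc1 (0.10) to -0.32 with Xist, -0.15 scaled to the markers (a scaling that moved the median of all genes by -0.18) and -0.034 to 0.25 leaving out one; Gja1 (-0.13) to between -0.36 and 0.23 leaving out one; and Gja4 (0.29) to -0.088 without both embryos numbered 1. Same-numbered control and knockout embryos share a code in the labels, which do not say what it marks. Their deviations from the group means correlated at 0.077, 0.177 and 0.029 over genes, and those of embryos of different number at -0.224 to 0.158. These few values cannot settle whether same-numbered embryos pair, and such embryos were not treated as paired. With the block Esrp1 had an adjusted p of 0.134 in edgeR, Gjb2 had -0.54, Gjb6 -0.48 and Gja5 0.91, and 0 members were called. Ranking members in controls by CPM in place of FPKM kept Gjb2 at rank 1. With 3 embryos a group, a 95% interval of about -1.13 to 0.06 for Gjb2 is what these data can resolve.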
